A study of Solanum lycopersicum with 9 samples.

Results

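The 9 genes described here set how tomato leaves and shoots are patterned. Their locus numbers define them, although they were picked with earlier results of these data known. They comprise the KNOX genes TKN1 (Solyc04g077210), TKN2 (Solyc02g081120) and TKN4 (Solyc01g100510), the BLADE-ON-PETIOLE genes BOP1 (Solyc04g040220), BOP2 (Solyc10g079460) and BOP3 (Solyc10g079750), and the leaf shape genes LANCEOLATE (Solyc07g062680), LEAFLESS (Solyc05g013540) and CLAUSA (Solyc04g008480). Together they matched 11 of the 33989 gene models in the deposited table, because TKN2 and LANCEOLATE each have 2 gene models. The table itself carries no gene names, so a name here rests on its locus number.

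RNA-Seq was available for 9 libraries in 3 sets of 3. The WRKY-B-GFP plants (libraries OE1, OE30 and OE9) carry the transcription factor gene WRKY-B fused to GFP behind a constitutive viral promoter, and the labels give them as cultivar Compound raceme, tissue flower. Control CK2 is labelled Compound raceme, bud, and control CK1 is labelled monomaker, bud. The methods of the study instead describe Ailsa Craig plants and axillary buds of the sixth node, with plants pooled within each replicate, and this conflict was not settled. The labels do not call the OE libraries WRKY-B-GFP. That reading comes from the name OE in the study's ChIP-Seq sample of these plants. The numbers 1, 30 and 9 may name transgenic lines, in which case each line has 1 library. By the labels, transgene and tissue change together between WRKY-B-GFP and both control sets, and cultivar changes as well against control CK1, so these cannot be told apart. Which control set is the wild type of the study is not labelled either, and both are given.

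Class I KNOX genes encode homeodomain proteins that keep cells of the shoot meristem undifferentiated, in part by raising cytokinin and holding back gibberellin synthesis. In tomato they are also active in young leaf primordia, where they prolong patterning and allow a compound leaf to form. LANCEOLATE, a TCP transcription factor gene targeted by the microRNA miR319, works in the opposite sense and drives leaf cells to mature. CLAUSA, a MYB gene, limits KNOX expression in leaves. The BOP genes encode transcriptional co-regulators of lateral organ bases and of the flowering transition. LEAFLESS encodes an AP2/ERF transcription factor needed to start cotyledons and leaves.

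Values are FPKM, fragment counts scaled to transcript length and library size, so levels of different genes can be set side by side per length. The tests used limma-trend on log2(FPKM + 0.1). A called gene model had to change at least 2-fold with an adjusted p under 0.05. Because of the added 0.1, changes of weakly expressed genes come out too small. Nothing says whether the 3 libraries of a control set came from separate plantings, so p-values measure the spread between these libraries only. An exact two-sided permutation test of 3 against 3 libraries cannot go below p = 0.1. WRKY-B (Solyc02g071130.3) stood at 74.0, 93.5 and 206 FPKM in OE1, OE30 and OE9, against 0.0800 to 0.400 FPKM in control CK2 and 0.550 to 0.870 FPKM in control CK1. Summed over 8 flower organ MADS-box genes, listed by locus number from general knowledge, the level was 686 to 770 FPKM in WRKY-B-GFP, 1476 to 1529 FPKM in control CK2 and 1133 to 1150 FPKM in control CK1. Flower organ genes were thus abundant in all 3 sets, also in the sets labelled bud, and of their 11 gene models 8 fell and 1 rose in WRKY-B-GFP against control CK2, where 23.2% of all gene models fell and 25.8% rose. Against control CK1, 5 of them fell and 1 rose (21.8% and 17.5% of all gene models). Over 4 photosynthesis genes of green tissue the sum was 4284 to 5075 FPKM in WRKY-B-GFP, 9825 to 11073 FPKM in control CK2 and 15860 to 16328 FPKM in control CK1. Of these 4, 2 were called lower against control CK2 and 3 against control CK1 (23.2% and 21.8% of all gene models), so the fall was not uniform. The part of tissue make-up in the results below was not tested. In whole tissue, fewer cells that express a gene and less RNA per cell cannot be told apart.

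Against control CK2, the KNOX genes and BOP1, LEAFLESS and CLAUSA were higher in WRKY-B-GFP, LANCEOLATE and BOP3 were lower, and BOP2 was not called. In numbers, 7 of 11 gene models were called higher, where 25.8% of all gene models tested were, and 3 of 11 were called lower, against a background of 23.2%. The split rested on single libraries, as it was 3 higher and 4 lower of 10 without OE9, and 5 higher and 1 lower of 10 without OE1. In those fits 49% and 47.5% of all gene models were called in either direction. The whole table moved widely in this comparison, with 49.0% of gene models called in either direction. Against control CK1, 6 of 11 gene models were called higher (background 17.5%) and 2 of 11 lower (background 21.8%, and 39.2% in either direction). The median log2 fold change of the 11 gene models was 1.17 against control CK2 and 1.01 against control CK1. Over all gene models tested it was 0.17 and 0.01, where rises and falls cancel. The median absolute log2 fold change of all gene models was 1.06 and 0.84. In absolute change against control CK2, TKN2 model Solyc02g081120.3.1, TKN4, BOP1, BOP3 and LANCEOLATE model Solyc07g062680.2.1 lay at percentiles 48.1 to 55 of all gene models. BOP2 lay at 38.5 and the other member gene models at 73.8 to 90.8. With the gene models of a locus summed, 6 of 9 genes were called higher and 2 lower against control CK2, where 48.5% of all loci were called in either direction. Against control CK1, 5 of 9 were higher and 1 lower (39.1% of all loci in either direction). Both comparisons use the same WRKY-B-GFP libraries. CLAUSA in both comparisons, and the TKN2 model Solyc02g081120.3 against control CK1, reached the minimum for testing through the WRKY-B-GFP libraries, where they are high. Counted without them, a choice made after seeing the data, 6 of 10 gene models were higher and 3 lower against control CK2 (median 1.09), and 4 of 9 were higher and 2 lower against control CK1 (median 0.96). The share over all gene models under that same condition was not computed, so these counts have no background beside them. Scaling each library by its median ratio lowered the median log2 fold change of all gene models by 0.31 against control CK2 and by 0.13 against control CK1, and raised that between control CK2 and control CK1 by 0.22. With that scaling, 4 members were called higher and 4 lower against control CK2, where 46.6% of all gene models were called in either direction. TKN4, BOP1 and 1 gene model of TKN2 then fell short of the 2-fold threshold, and BOP2 passed it as lower.

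**Figure D1:**
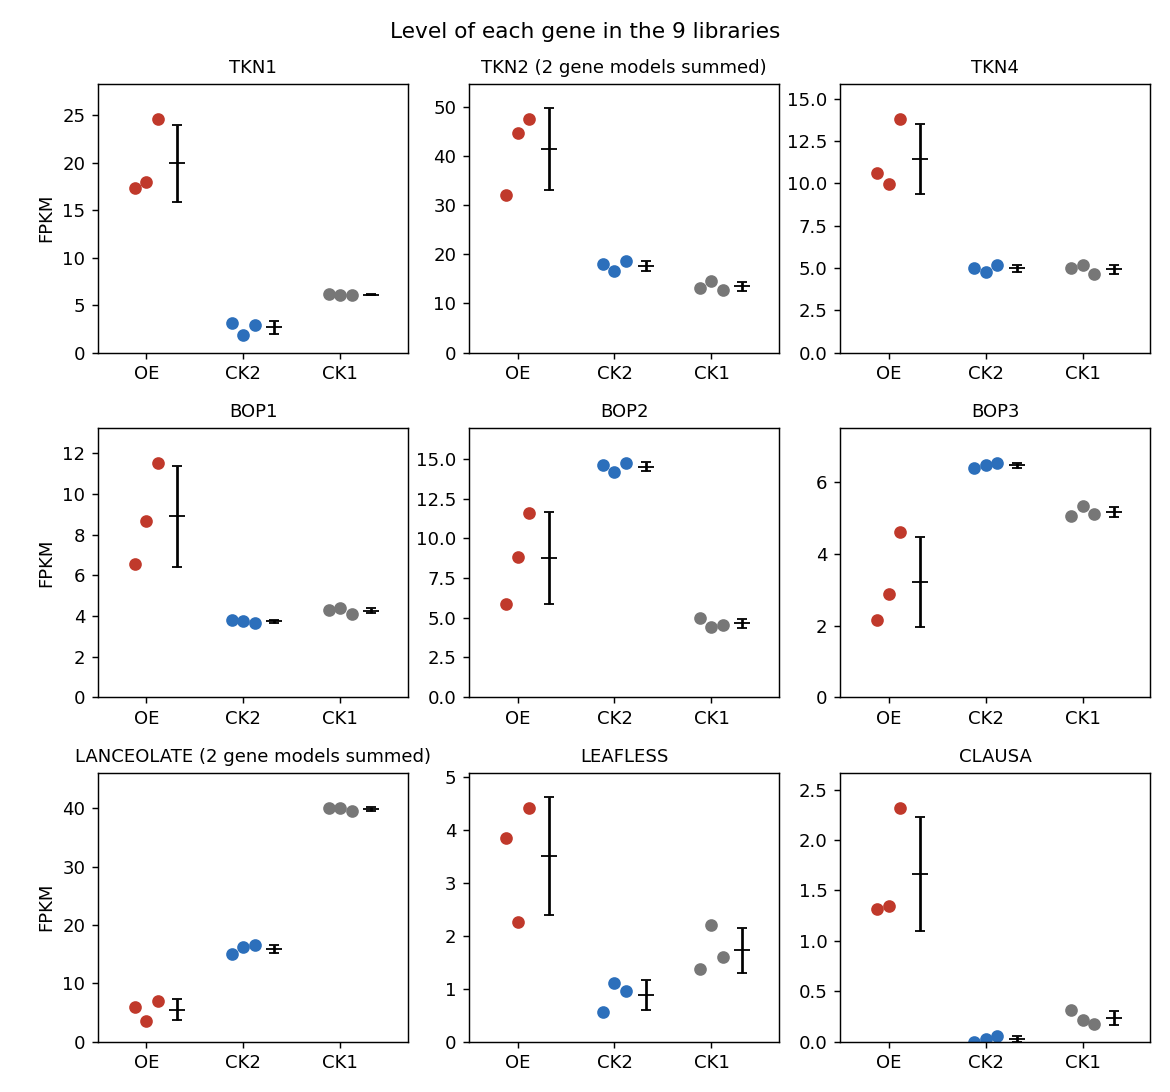
FPKM of each gene (y axis, from 0) in the WRKY-B-GFP (OE), control CK2 and control CK1 libraries, 1 point per library, with the mean and SD of 3 libraries as the black bar. For TKN1, TKN4 and BOP1 the WRKY-B-GFP points lie above both control sets, for LANCEOLATE and BOP3 they lie below both, and BOP2 lies between the sets, with WRKY-B-GFP at 5.87 to 11.6 FPKM.

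TKN1 had the largest fold change of the KNOX genes against control CK2. It is the tomato counterpart of the Arabidopsis gene BREVIPEDICELLUS, which acts in stems and meristems. TKN1 was at 17.3, 18.0 and 24.7 FPKM in OE1, OE30 and OE9, against 3.16, 1.89 and 2.91 FPKM in control CK2 and 6.16, 6.13 and 6.08 FPKM in control CK1. All WRKY-B-GFP libraries were above all control libraries. WRKY-B-GFP exceeded control CK2 by 2.88 log2 units (standard error 0.24, adjusted p = 0.000107 by limma-trend) and control CK1 by 1.67 log2 units (standard error 0.16, adjusted p = 0.000257). The call held under all 13 alternatives against control CK2 and all 12 against control CK1. TKN1 also differed between the control sets, where control CK2 was lower by 1.21 on the log2 scale (adjusted p = 0.00104). That last call lies near the 2-fold threshold and was lost with median-ratio scaling, with log2(FPKM + 1) and without CK2_2, at log2 fold changes of -0.99, -0.98 and -0.99.

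TKN2, also known as LeT6, is the counterpart of the Arabidopsis meristem gene SHOOT MERISTEMLESS, and its misexpression underlies the classical leaf mutants Mouse ears and Curl. It had the highest KNOX level in every library. Its 2 gene models share a locus, and reads could be split between them in different ways by the authors' counting. The model Solyc02g081120.3.1 spans positions 45744066 to 45748419 of chromosome 2 (build SL3.0, plus strand). It was at 21.1, 36.9 and 33.7 FPKM in OE1, OE30 and OE9, against 17.2, 14.0 and 13.4 FPKM in control CK2 and 11.2, 14.5 and 12.4 FPKM in control CK1. The other model, Solyc02g081120.3, was at 10.9, 7.87 and 13.9 FPKM in WRKY-B-GFP, against 0.780, 2.57 and 5.21 FPKM in control CK2 and 2.04, 0 and 0.320 FPKM in control CK1. Within the control sets this model varied widely, while the sum of both models did not.

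Summed over the locus, TKN2 stood at 31.98, 44.7 and 47.6 FPKM in OE1, OE30 and OE9, against 18.0, 16.6 and 18.6 FPKM in control CK2 and 13.2, 14.5 and 12.8 FPKM in control CK1. Neither control set reached the lowest WRKY-B-GFP library. The log2 rise of the summed locus was 1.202 over control CK2 (standard error 0.16, adjusted p = 0.000767) and 1.59 over control CK1 (standard error 0.16, adjusted p = 0.000333). Taken alone, Solyc02g081120.3.1 rose by 1.00 against control CK2 (adjusted p = 0.00850), at the 2-fold threshold, and by 1.22 against control CK1 (adjusted p = 0.00423). The call against control CK2 was lost in 6 of 13 alternatives. Those were log2(FPKM + 1), median-ratio scaling (0.69), and leaving out CK2_2, CK2_3, OE30 or OE9 (0.85 to 0.97). Solyc02g081120.3 rose by 2.21 over control CK2 (standard error 0.65, adjusted p = 0.0219) and by 4.58 over control CK1 (standard error 1.05, adjusted p = 0.00956). Against control CK2 its call was lost without OE1 (adjusted p = 0.0556), without OE9 (adjusted p = 0.0642) and with all 9 libraries in 1 fit (adjusted p = 0.0916). Its value was 1.51 without CK2_1 and 2.80 without CK2_3 against control CK2, both still called. Against control CK1 it was 3.50 without CK1_2 and 5.71 without CK1_1. In control CK1 this model is listed at 0 in 1 library and reached the minimum level for testing in only 1, so the size of its rise there depends on the added 0.1. As it was tested against control CK1 only because it was high in WRKY-B-GFP, its calls there carry little weight.

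TKN4, a further class I KNOX gene, had nearly the same level in both control sets. It was at 10.6, 9.96 and 13.8 FPKM in OE1, OE30 and OE9, against 4.99, 4.77 and 5.17 FPKM in control CK2 and 5.00, 5.16 and 4.63 FPKM in control CK1. Its log2 rise was 1.17 over control CK2 (standard error 0.15, adjusted p = 0.000724) and 1.19 over control CK1 (standard error 0.16, adjusted p = 0.000996). With median-ratio scaling the value against control CK2 was 0.86 and was not called. Between control CK2 and control CK1 its log2 difference was 0.01, with a 95% interval of -0.18 to 0.21.

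As a family, the KNOX genes summed to 59.9, 72.6 and 86.1 FPKM in the WRKY-B-GFP libraries, to 26.1, 23.2 and 26.7 FPKM in control CK2 and to 24.4, 25.8 and 23.5 FPKM in control CK1. The control sets thus overlapped in their KNOX total but not in its make-up. TKN1 contributed 24.7% to 28.9% of the total in WRKY-B-GFP, 8.13% to 12.1% in control CK2 and 23.8% to 25.9% in control CK1. The order of levels was TKN2, TKN1, TKN4 in WRKY-B-GFP and control CK1, and TKN2, TKN4, TKN1 in control CK2. No neighbours in these orders overlapped within a set.

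**Figure D2:**
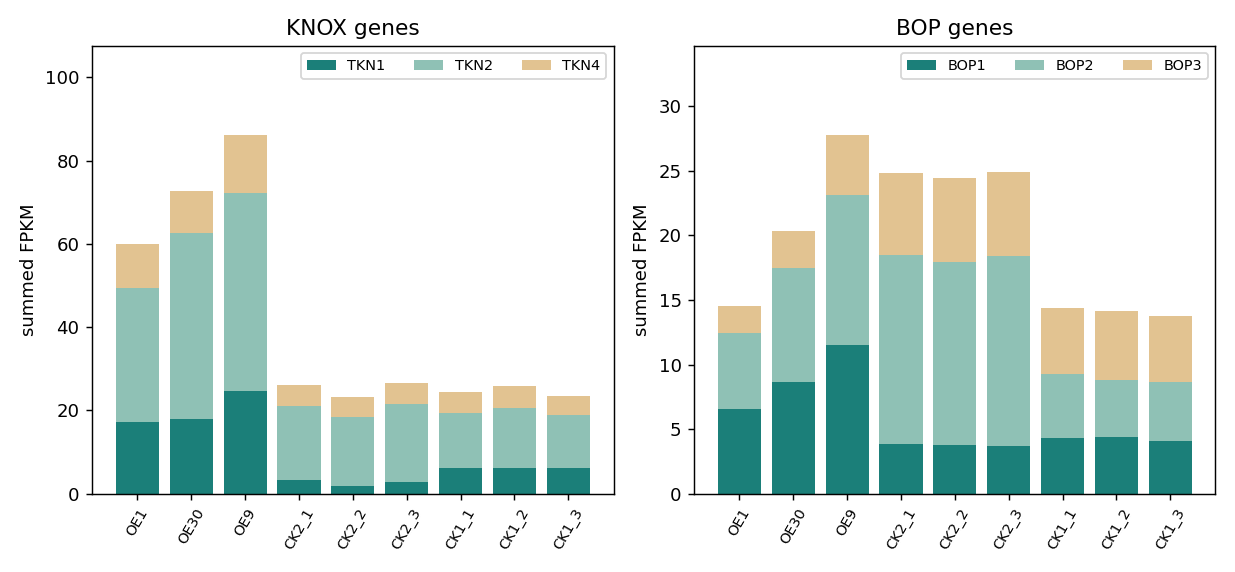
Stacked FPKM (y axis) of the 3 KNOX genes (left) and the 3 BOP genes (right) in each library (x axis), with both gene models of TKN2 summed. The KNOX total is 59.9 to 86.1 FPKM in the OE libraries and 23.2 to 26.7 FPKM in the control libraries, while the BOP total of the OE libraries, 14.6 to 27.7 FPKM, spans that of control CK2.

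The BOP genes moved in different directions. BOP1 was at 6.54, 8.65 and 11.5 FPKM in OE1, OE30 and OE9, against 3.81, 3.75 and 3.66 FPKM in control CK2 and 4.31, 4.37 and 4.10 FPKM in control CK1. All WRKY-B-GFP libraries were above all control libraries. The log2 rise of BOP1 was 1.19 over control CK2 (standard error 0.22, adjusted p = 0.00307) and 1.01 over control CK1 (standard error 0.22, adjusted p = 0.00737). Both values lie close to the 2-fold threshold. Without OE9 these values were 0.99 and 0.81, and neither was called. Leaving out CK1_3 also ended the call against control CK1, at 0.98, as did median-ratio scaling and log2(FPKM + 1), both at 0.88.

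BOP3 had the opposite direction. It was at 2.14, 2.89 and 4.61 FPKM in OE1, OE30 and OE9, against 6.40, 6.49 and 6.53 FPKM in control CK2 and 5.06, 5.34 and 5.11 FPKM in control CK1, so all WRKY-B-GFP libraries were below all control libraries. Its log2 fold change against control CK2 was -1.06 (standard error 0.28, adjusted p = 0.0143), a call that was lost without OE1, with log2(FPKM + 1) and with the 6 control libraries pooled, at -0.81, -0.87 and -0.90. Against control CK1 the log2 fold change of BOP3 was -0.74 (95% interval -1.42 to -0.06, adjusted p = 0.0589), which was not called. Without OE9 it reached -1.03 and was called (adjusted p = 0.00552).

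BOP2 was the only BOP gene called between the control sets. It was at 5.87, 8.80 and 11.6 FPKM in OE1, OE30 and OE9, against 14.7, 14.2 and 14.7 FPKM in control CK2 and 4.98, 4.42 and 4.56 FPKM in control CK1. All 3 libraries of WRKY-B-GFP lay between the control sets, without overlap. Control CK2 was higher than control CK1 by 1.62 on the log2 scale (standard error 0.07, adjusted p = 1.36e-06), a call that held under all 13 alternatives. WRKY-B-GFP was not called against either set. Its log2 fold change was -0.78 against control CK2 (95% interval -1.37 to -0.19, adjusted p = 0.0280) and 0.85 against control CK1 (95% interval 0.23 to 1.46, adjusted p = 0.0261), so the sign depends on the control. Leaving out a single WRKY-B-GFP library gave a call in each comparison, at -1.005 against control CK2 without OE9 and at 1.11 against control CK1 without OE1.

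Within a library, the make-up of the BOP family separated the 3 sets. BOP1 made up 41.5% to 44.9% of the BOP total in WRKY-B-GFP, 14.7% to 15.3% in control CK2 and 29.8% to 30.9% in control CK1. The ratio of BOP1 to BOP3 was 3.06, 2.99 and 2.50 in OE1, OE30 and OE9, against 0.595, 0.578 and 0.560 in control CK2 and 0.852, 0.818 and 0.802 in control CK1. Such a ratio does not depend on how libraries are scaled. In control CK2 the order of levels was BOP2, BOP3, BOP1. In WRKY-B-GFP, BOP1 and BOP2 overlapped and BOP3 was lowest. In control CK1 the order was BOP3, BOP2, BOP1, with narrow gaps, as the lowest BOP2 value of 4.42 FPKM was just above the highest BOP1 value of 4.37 FPKM. BOP2 and BOP3 lie on the same chromosome, with 28 genes listed between them in the RefSeq annotation of assembly SLM_r2.1. How reads shared by such related genes were assigned is not stated.

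LANCEOLATE was the gene with the steepest fall. Its model Solyc07g062680.2 was at 4.13, 0.830 and 4.35 FPKM in OE1, OE30 and OE9, against 9.93, 10.3 and 11.1 FPKM in control CK2 and 27.4, 27.3 and 26.2 FPKM in control CK1. The model Solyc07g062680.2.1, which spans positions 65498965 to 65502401 of chromosome 7 (SL3.0, plus strand), was at 1.77, 2.68 and 2.68 FPKM in WRKY-B-GFP, against 5.14, 5.84 and 5.39 FPKM in control CK2 and 12.7, 12.7 and 13.3 FPKM in control CK1. Both models gave the same order, with WRKY-B-GFP lowest, control CK2 between and control CK1 highest, and no overlap between sets. Summed over the locus, LANCEOLATE stood at 5.90, 3.51 and 7.03 FPKM in WRKY-B-GFP, against 15.1, 16.1 and 16.5 FPKM in control CK2 and 40.1, 40.0 and 39.5 FPKM in control CK1.

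The summed LANCEOLATE locus had a log2 fold change of -1.58 relative to control CK2 (standard error 0.25, adjusted p = 0.00169) and of -2.90 relative to control CK1 (standard error 0.25, adjusted p = 0.000168), and both were called. Control CK2 was itself lower than control CK1 by 1.32 (standard error 0.05, adjusted p = 1.86e-07). As single models, Solyc07g062680.2 fell by 2.02 and Solyc07g062680.2.1 by 1.19 against control CK2 (adjusted p = 0.0242 and 0.00240), and against control CK1 they had log2 fold changes of -3.38 and -2.42 (adjusted p = 0.00340 and 0.000142). The call on Solyc07g062680.2 was lost without any 1 control CK2 library (adjusted p = 0.0509 to 0.0554). Without OE30, its lowest library, the log2 fold change of Solyc07g062680.2 was -1.28 against control CK2 and -2.64 against control CK1, both still called. The call on Solyc07g062680.2.1 was lost without OE1 and with log2(FPKM + 1), at log2 fold changes of -0.997 and -0.95. In OE30, Solyc07g062680.2 held only 23.6% of the LANCEOLATE signal, against 63.8% to 67.3% in control CK2, and the other WRKY-B-GFP libraries were at 70.0% and 61.9%.

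The KNOX total and LANCEOLATE, which act in opposite senses on leaf maturation, were set side by side in each library. The KNOX total was 10.2, 20.7 and 12.2 times the LANCEOLATE level in OE1, OE30 and OE9, against 1.73, 1.44 and 1.62 times in control CK2 and 0.608, 0.645 and 0.594 times in control CK1. Between the control sets the KNOX totals overlapped, while LANCEOLATE did not.

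**Figure D3:**
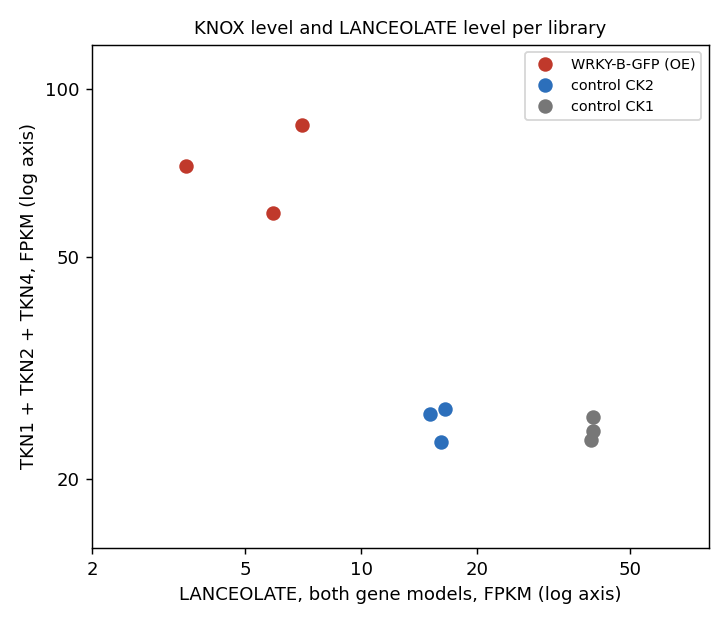
Summed FPKM of TKN1, TKN2 and TKN4 (y axis) against summed FPKM of the 2 LANCEOLATE gene models (x axis) in each of the 9 libraries, both on log axes. The control sets share a KNOX total of 23.2 to 26.7 FPKM and differ in LANCEOLATE, while the WRKY-B-GFP libraries have more KNOX and less LANCEOLATE than either.

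LEAFLESS had low levels throughout. It was at 3.85, 2.27 and 4.42 FPKM in OE1, OE30 and OE9, against 0.560, 1.11 and 0.950 FPKM in control CK2 and 1.38, 2.2 and 1.60 FPKM in control CK1. The lowest WRKY-B-GFP library, OE30, was only just above the highest control CK1 library. The log2 rise of LEAFLESS over control CK2 was 1.89 (standard error 0.35, adjusted p = 0.00336), and all 13 alternatives kept this call. Against control CK1 its log2 fold change of 0.96 (95% interval 0.20 to 1.71, adjusted p = 0.0355) fell just short of the 2-fold threshold, and it was called without OE30, at 1.23, and without CK1_2, at 1.14.

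CLAUSA had the lowest mean level of the 9 genes in every set. It was at 1.32, 1.35 and 2.32 FPKM in OE1, OE30 and OE9, against 0, 0.0300 and 0.0600 FPKM in control CK2 and 0.310, 0.210 and 0.180 FPKM in control CK1. The 3 sets did not overlap. Its log2 rise was 3.74 over control CK2 (standard error 0.32, adjusted p = 0.000124) and 2.38 over control CK1 (standard error 0.32, adjusted p = 0.00106). As CLAUSA was tested only because it was high in WRKY-B-GFP, its calls carry little weight. The size of its rise depended on the number added before the logarithm, from 1.35 with log2(FPKM + 1) to 5.73 with log2(FPKM + 0.01) against control CK2.

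**Figure D4:**
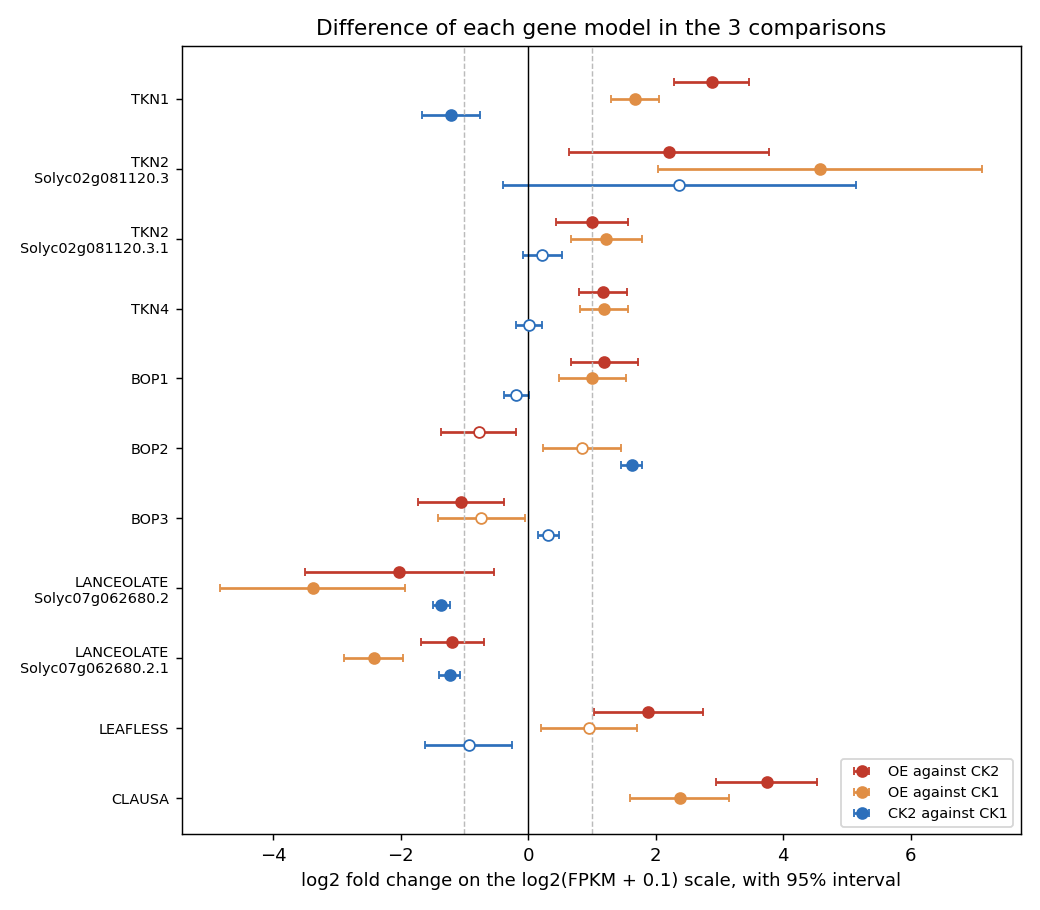
Log2 fold change (x axis, on the log2(FPKM + 0.1) scale) with its 95% interval for each of the 11 gene models (y axis) in the 3 comparisons. Filled points were called and open points were not, and the dashed lines mark a fold change of 2. The whole intervals of TKN1 and CLAUSA lie right of these lines in both WRKY-B-GFP comparisons, although CLAUSA was tested only because it was high in WRKY-B-GFP. The points of both TKN2 models, TKN4 and BOP1 lie right of them too, but not all of their intervals. In these comparisons the first models of TKN2 and LANCEOLATE have the widest intervals.

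The control sets were then compared with each other. Of the 10 gene models tested, BOP2 was called higher in control CK2, and TKN1 and both models of LANCEOLATE were called lower. These are 1 of 10 higher (background 13.0%) and 3 of 10 lower (background 14.0%, and 27.0% in either direction). BOP3 was higher in control CK2 by 0.32 on the log2 scale (adjusted p = 0.00483), below a fold change of 2. LEAFLESS had a log2 fold change of -0.93 (95% interval -1.61 to -0.25, adjusted p = 0.0235), also short of 2-fold. It passed that threshold without CK1_1, CK2_2 or CK2_3, at -1.11 to -1.01. Summed over the locus, TKN2 was higher in control CK2 by 0.39 on the log2 scale (95% interval 0.23 to 0.55, adjusted p = 0.00128), again below 2-fold. TKN2 model Solyc02g081120.3 was not called, at 2.37 (adjusted p = 0.108). Without CK1_1 this TKN2 model was called higher, at 3.50 (adjusted p = 0.0162), but then no control CK1 library reached the minimum for testing. That call came through the control CK2 libraries, where the model is high, and carries little weight.

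A list of 12 further genes around the same process was counted as well. It holds organ boundary, axillary meristem, inflorescence, leaf development and gibberellin genes, listed by locus number from general knowledge. Of its 14 gene models, 11 were tested against control CK2, and 5 of these were called higher and 1 called lower, beside backgrounds of 25.8% and 23.2%. Relative to control CK1, 3 of 11 were higher and 1 lower, beside 17.5% and 21.8%, so the share called higher is not far from the background. Between the control sets, 4 of 9 were called lower in control CK2, beside 14.0%. Some gene models called higher in WRKY-B-GFP reached the minimum for testing only through the WRKY-B-GFP libraries, where they are high. Between the control sets, some called lower reached it only through control CK1. The counts of this list were not corrected for this, so they carry little weight. The median log2 fold change of the list was 0.29 against control CK2 and -0.24 against control CK1.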

How the data were processed

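The deposited table holds FPKM of every gene model in each library, as computed by the authors. Tools named in the submitters' notes, with no roles, are RSEM 1.2.12, HISAT2 2.0.4, DESeq2 1.4.5 and Bowtie2 2.2.5. Positions refer to SL3.0, while the study names SL4.0. The 27 columns of the authors' own comparisons (log2 ratios, p-values, q-values) were not used, and 0 columns held other samples.

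The members and lists were chosen with earlier results of these data known. Names of the 9 members come from that choice. RefSeq lists 8 of them, each on the chromosome its locus number gives, but no locus numbers. All member gene models are named.

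As values were FPKM, limma-trend (limma 3.58.1, R 4.3.3) was fitted to log2(FPKM + 0.1) of the libraries compared, restricted to gene models that reached 0.5 FPKM in 3 libraries or more, 24905, 24448 and 25268 in the 3 comparisons, with Benjamini-Hochberg adjustment over all. The code was tested on simulated data. Summaries and plots used Python 3.11.15, pandas 2.3.3 and matplotlib 3.10.9. Alternatives were other added values, no filter, median-ratio scaling, all libraries in 1 fit, pooled controls, summed loci, a replicate block and leaving out each library.

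Read totals are unknown. Among low values, the most frequent log2 ratio between each library and CK1_1 was 0 (bins of 0.1). That bin held 66 to 231 of 852 to 1621 gene models. Both values had to lie in nearly the same narrow range, which favours a ratio near 0. The ratio therefore cannot decide relative depth, and does not establish that depths were equal. FPKM summed to 615715 to 684351 in WRKY-B-GFP and 743707 to 769380 in the control sets. No sequences are shown.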

Additional observations from a re-analysis of the deposited data

How the results depend on the processing

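Over 32 fold changes of single gene models, 399 alternative values were computed. Of these, 356 kept their direction and their side of the thresholds, 28 lost the call, 11 gained it and 4 changed sign. The changes of sign all concern differences that were not called. BOP2 stood at 0.035 on the log2 scale in WRKY-B-GFP against the 6 pooled control libraries, BOP1 at 0.035 in control CK2 against control CK1 with median-ratio scaling, and TKN4 at -0.030 to 0.047 between the control sets as single libraries were left out.

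The number of members called against control CK2, 10 in the main analysis, was 6 to 9 when 1 library was left out, with 6 without OE1. Those fits called 41.8% to 49% of all gene models. In fits without a WRKY-B-GFP library CLAUSA was not tested, because only 2 libraries then reached the minimum level. Log2(FPKM + 1) gave 7 calls against control CK2 (40.3% of all gene models), and the pooled controls 9 (36.1% of all). Against control CK1 the number was 7 to 9 without single libraries, where 32.6% to 40.4% of all gene models were called. Between the control sets it was 4, with 4 to 6 without single libraries (23.3% to 24.3% of all gene models). The 6, without CK1_1, include TKN2 model Solyc02g081120.3, tested then only through control CK2. With the replicate number as a block it was 4 (27% of all). Same-numbered control libraries did not deviate together (correlations of -0.030, 0.012 and -0.009 across gene models, which are not independent). The WRKY-B-GFP numbers differ from those of the controls, apart from 1, so no block was fitted there. Whether depth limits precision for genes at low FPKM, such as LEAFLESS and CLAUSA, was not tested. Against control CK2 the largest standard errors were 0.65 for Solyc02g081120.3 and 0.61 for Solyc07g062680.2. LEAFLESS had 0.35 and CLAUSA 0.32.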

Other observations

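OE9, which had the highest WRKY-B level, also had the highest level of the 3 WRKY-B-GFP libraries for 9 of the 9 genes, with gene models of a locus summed. Over all gene models tested against control CK2 and above 0 in WRKY-B-GFP, OE9 was highest for 41.3%, OE30 for 30.7% and OE1 for 28.0%. This held also for LANCEOLATE and BOP3, which were lower in WRKY-B-GFP than in the controls, so that within WRKY-B-GFP the library with most WRKY-B was the one closest to the controls for these genes. With 3 libraries no relation was tested.

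The genes with the most alike profiles over the 9 libraries were TKN4 and BOP1, whose log2(FPKM + 0.1) values differed by a root mean square of 0.16 after each profile's mean was removed. TKN2 and TKN4 followed at 0.23 and TKN2 and BOP1 at 0.29. BOP1 was further from BOP2 and BOP3 than from TKN4. These distances are a description, and the libraries of a set share its other differences.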
